A study of Glycyrrhiza uralensis with 6 samples.

Results

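In licorice (Glycyrrhiza uralensis Fisch) suspension cells, 86 of 116907 assembled unigenes followed the replicate number of a library and not its treatment. A unigene is a gene-level cluster of assembled transcripts, and the replicate number is the 1, 2 or 3 that each library carries in its label within its group. The 86 unigenes were chosen by their measured values in all 6 libraries, so their orders and spreads are a description and carry no test. A member had 10 or more counts in 3 or more libraries, a mean level between 20 and 1000 CPM (counts divided by the library size on the usual per-million scale, with library sizes adjusted by the trimmed mean of M-values, TMM), and group means of L that were less than 1.5-fold apart, where L is log2(CPM + 1). In both groups the same number had to be the highest and the same number the lowest, with at least 1 log2 unit of L between them. A last criterion, which removed the 200 most stable unigenes of that level, removed no member.

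The study asked how the transcriptome of these cells responded to methyl jasmonate (MeJA). The MeJA group comprised 3 libraries labelled as cells given 0.5 μL of MeJA per mL of suspension. The control group comprised 3 libraries labelled as cells given 0.4 μL of absolute ethanol per mL. Both were treated for 9 h according to the labels. The paper's results also name 9 h as the time point chosen for sequencing, while its methods state a longer culture. All cells came from callus of aseptic seedlings kept for 20 generations on solid medium and then for 3 weeks in liquid medium, and the methods describe the choice of a single well-grown suspension line. Nothing in the labels or methods says whether a number stands for a flask, a day or a round of library making.

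Jasmonates are plant hormones that are made from membrane lipids upon wounding and attack. Their perception by the COI1 receptor complex leads to the destruction of JAZ repressor proteins, which frees transcription factors to act on defense and secondary metabolism genes. MeJA is therefore widely used as an elicitor in plant cell cultures, and in licorice cultures the products of interest are flavonoids and triterpenoids. Suspension cultures are mixtures of cells in different growth states. The unigene identifiers were paired with no gene name here, so no function is given to a member and the cells could not be checked against marker genes.

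The 6 libraries held between 17041505 and 21670945 counts, and their TMM factors ran from 1.13 to 1.28 in the libraries labelled MeJA and from 0.748 to 0.918 in the libraries labelled control. In 6 of 6 files the internal sample name bore the letter of the other group, together with the number of its label. The sequenced reads that the paper lists per sample stand in a nearly constant ratio to these totals when samples are matched by the letter inside the file, but not when they are matched by the label, so the groups may be exchanged between labels and files. The groups are called here as they are labelled, and any direction between MeJA and control would turn round if the labels are exchanged. Membership does not depend on which letter is right, because the rule treats both groups alike. The total count was highest in number 2 of the libraries labelled MeJA and number 3 of the libraries labelled control, and lowest in number 1 of the libraries labelled MeJA and number 2 of the libraries labelled control, so the totals did not share an order. The TMM factor, the number of unigenes with a count and the median shift in effective length also had a different highest and a different lowest number in each group. That shift was taken over 9517 unigenes with a mean effective length above 1000 bases. The 100 most abundant unigenes took 13.1%, 16.4% and 16.5% of the counts in the libraries labelled MeJA 1, 2 and 3, against 24.6%, 26.4% and 26.2% in the libraries labelled control 1, 2 and 3, so that this share was lowest in number 1 in both groups. Its part in the results was not tested.

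Of the 116907 unigenes, 24775 passed the count criterion and 7472 of these had a mean level between 20 and 1000 CPM. Group means were close in 3132 of the 7472. A spread of at least 1 log2 unit in both groups was held by 292 of the 3132, and 86 of the 292 (29.5%) had the same highest and the same lowest number in both groups. The other 206 differed between the groups in the highest number, the lowest number or both.

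Number 3 was the highest in 53 of the 86 unigenes (61.6%), number 2 in 20 and number 1 in 13. Number 1 was the lowest in 58 (67.4%), number 2 in 21 and number 3 in 7. The order with number 3 highest and number 1 lowest was held by 42 unigenes (48.8%). It was followed by number 2 highest and number 1 lowest with 16 unigenes, number 3 highest and number 2 lowest with 11, number 1 highest and number 2 lowest with 10, number 2 highest and number 3 lowest with 4, and number 1 highest and number 3 lowest with 3. The members therefore covered all 6 possible orders, and most of them were low in the libraries numbered 1. The 292 unigenes with wide spreads, which include the 86 members, can be set beside them. Of the 292, 85 had number 3 highest and number 1 lowest in the libraries labelled MeJA. In the libraries labelled control it was 90 of the 292, and this was the commonest order in each group. The same 42 members are counted in the 85 and in the 90. With the members left out, this order was not the commonest in either group. Number 2 highest and number 1 lowest was held by 67 and 66 of the 292, and number 3 highest and number 2 lowest by 64 and 34.

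**Figure D1:**
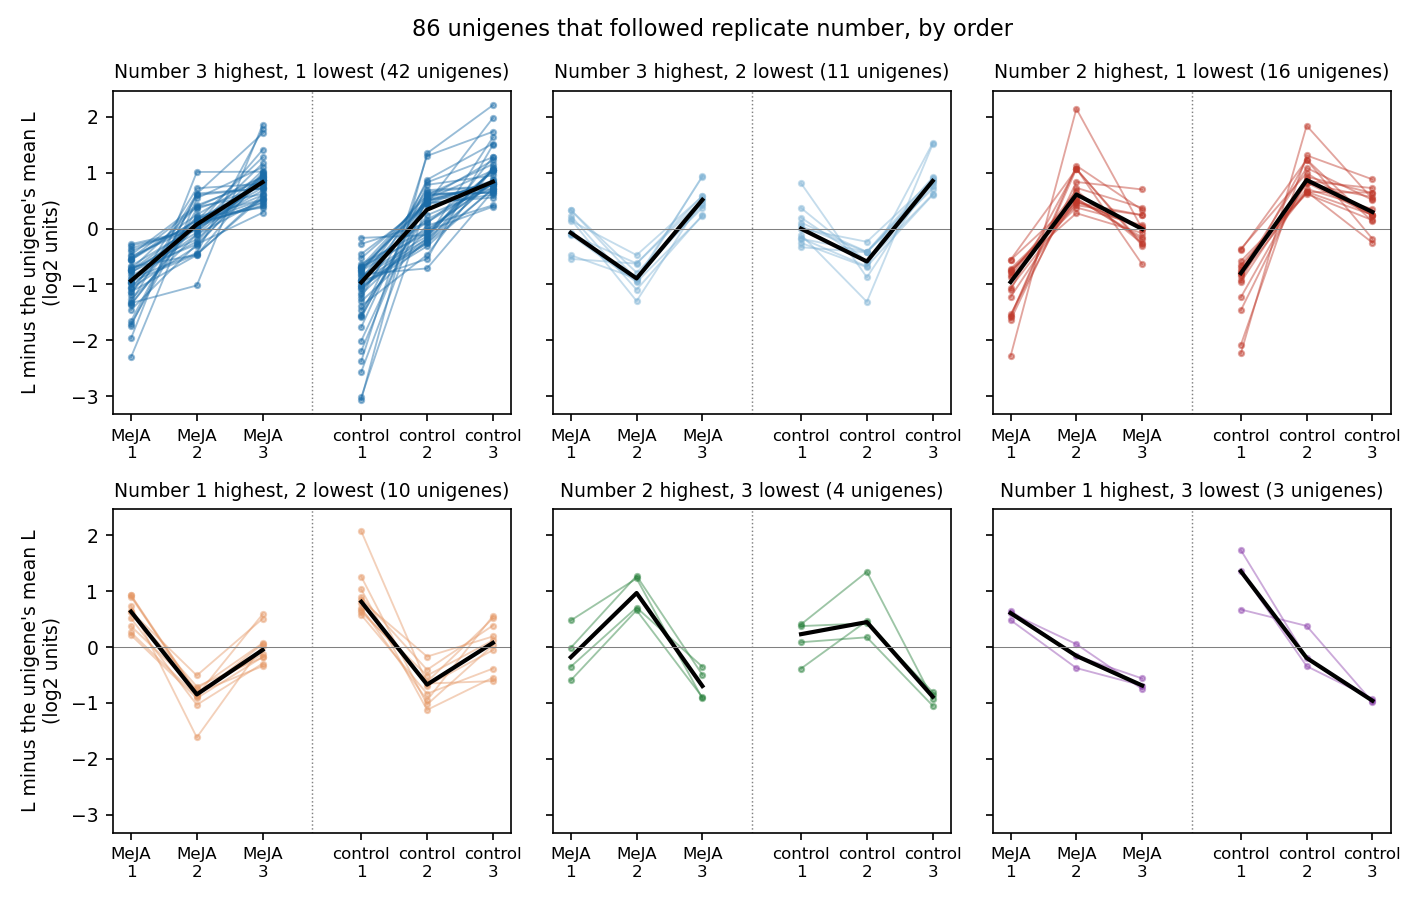
L of each of the 86 unigenes minus its mean over the 6 libraries (y axis, log2 units), by library (x axis, MeJA libraries left and control libraries right of the dotted line), with 1 panel for each order of the numbers. Thin lines are unigenes and black lines are medians over the panel, and in the panel of 42 unigenes both black lines climb across numbers 1, 2 and 3.

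Among the 42 unigenes with number 3 highest and number 1 lowest, the median level was 29.8, 66.6 and 134 CPM in the libraries labelled MeJA 1, 2 and 3, and 24.7, 70.4 and 136 CPM in the libraries labelled control 1, 2 and 3. The medians of both groups lay close to each other at each number. Among the 16 unigenes with number 2 highest and number 1 lowest, the medians were 36.3, 128 and 93.8 CPM in the libraries labelled MeJA, against 42.7, 167 and 112 CPM in the libraries labelled control. In these medians, the library numbered 3 stood nearer to the high than to the low library, which did not hold in every one of the 16.

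The 11 unigenes with number 3 highest and number 2 lowest had medians of 61.1, 33.4 and 110 CPM in the libraries labelled MeJA 1, 2 and 3, against 59.0, 44.0 and 101 CPM in the libraries labelled control. The 10 unigenes with number 1 highest and number 2 lowest had medians of 78.2, 26.3 and 46.7 CPM in the libraries labelled MeJA, against 94.2, 35.1 and 55.0 CPM in the libraries labelled control. The groups of each order overlapped in every unigene, which the rule fixes. The remaining orders were held by 4 and 3 unigenes.

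Summed over the 86 unigenes, the level was 6396, 10153 and 14436 CPM in the libraries labelled MeJA 1, 2 and 3, and 7577, 12381 and 17140 CPM in the libraries labelled control 1, 2 and 3. Their share of all counts was 0.801%, 1.29% and 1.62% in the libraries labelled MeJA, against 0.691%, 0.921% and 1.36% in the libraries labelled control. The sum was lowest in number 1 and highest in number 3 in both groups, an order that 42 of the 86 members held. In bulk RNA a lower level can come from fewer cells of a type or from less RNA per cell, and these cannot be told apart. The 206 unigenes without a shared order summed to 17033, 20432 and 26949 CPM in the libraries labelled MeJA, against 19809, 24029 and 26545 CPM in the libraries labelled control. Their sum was likewise lowest in number 1 and highest in number 3 in both groups.

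Individual unigenes were named by a fixed rule, as the member of each order with the widest spread and the member with the highest mean level. The widest of the leading order was c59667_g1, with 12.5, 68.0 and 145 CPM in the libraries labelled MeJA 1, 2 and 3, against 4.54, 60.2 and 175 CPM in the libraries labelled control 1, 2 and 3. It was lowest in both libraries numbered 1 and highest in both numbered 3, and the groups overlapped. The spread of L was 3.44 log2 units in the libraries labelled MeJA and 4.99 in the libraries labelled control, whereas the group means of L differed by 0.39. Its lowest count in any library was 84, so the order did not rest on a handful of counts.

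The most extreme member was c55780_g5, with number 2 highest and number 1 lowest. It had 1.96, 62.5 and 13.4 CPM in the libraries labelled MeJA 1, 2 and 3, against 2.05, 50.5 and 19.8 CPM in the libraries labelled control 1, 2 and 3. The level in the library labelled MeJA 2 was 32.0 times that in the library labelled MeJA 1, and the same ratio was 24.6 in the libraries labelled control, while the group means of L differed by -0.09. Its 2 lowest libraries held 43 counts in the library labelled MeJA 1 and 38 in the library labelled control 1, the lowest count of any member. The libraries with the same number were closer to each other than to any other library.

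Number 3 was highest and number 2 lowest in c33030_g1, which had 93.8, 33.4 and 120 CPM in the libraries labelled MeJA, against 89.8, 62.4 and 158 CPM in the libraries labelled control. The libraries numbered 2 were the lowest, and in the control group number 1 also stood nearer to the low than to the high library. Number 1 was highest and number 2 lowest in c73634_g1, with 39.4, 12.8 and 22.0 CPM in the libraries labelled MeJA, against 118, 17.0 and 17.5 CPM in the libraries labelled control. In the libraries labelled control of c73634_g1 the lowest and the middle library were nearly tied, and a single library, number 1, carried the spread.

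Number 3 was the lowest in c8731_g1 and c51922_g1. In c8731_g1 the values were 17.6, 43.4 and 14.1 CPM in the libraries labelled MeJA 1, 2 and 3, against 36.3, 70.5 and 13.9 CPM in the libraries labelled control. In c51922_g1 they were 28.1, 18.8 and 10.3 CPM in the libraries labelled MeJA, against 47.8, 14.0 and 9.04 CPM in the libraries labelled control. The libraries numbered 3 held nearly the same level in both groups in each of these unigenes, and the high libraries were further apart between the groups.

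The most abundant member was c46549_g1, with a mean of 930 CPM. It had 434, 985 and 1221 CPM in the libraries labelled MeJA 1, 2 and 3, against 523, 920 and 1500 CPM in the libraries labelled control 1, 2 and 3. Number 1 was again the lowest and number 3 the highest, with spreads of 1.49 log2 units in the libraries labelled MeJA and 1.52 in the libraries labelled control. Its counts ran from 9536 to 27800 over the 6 libraries.

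**Figure D2:**
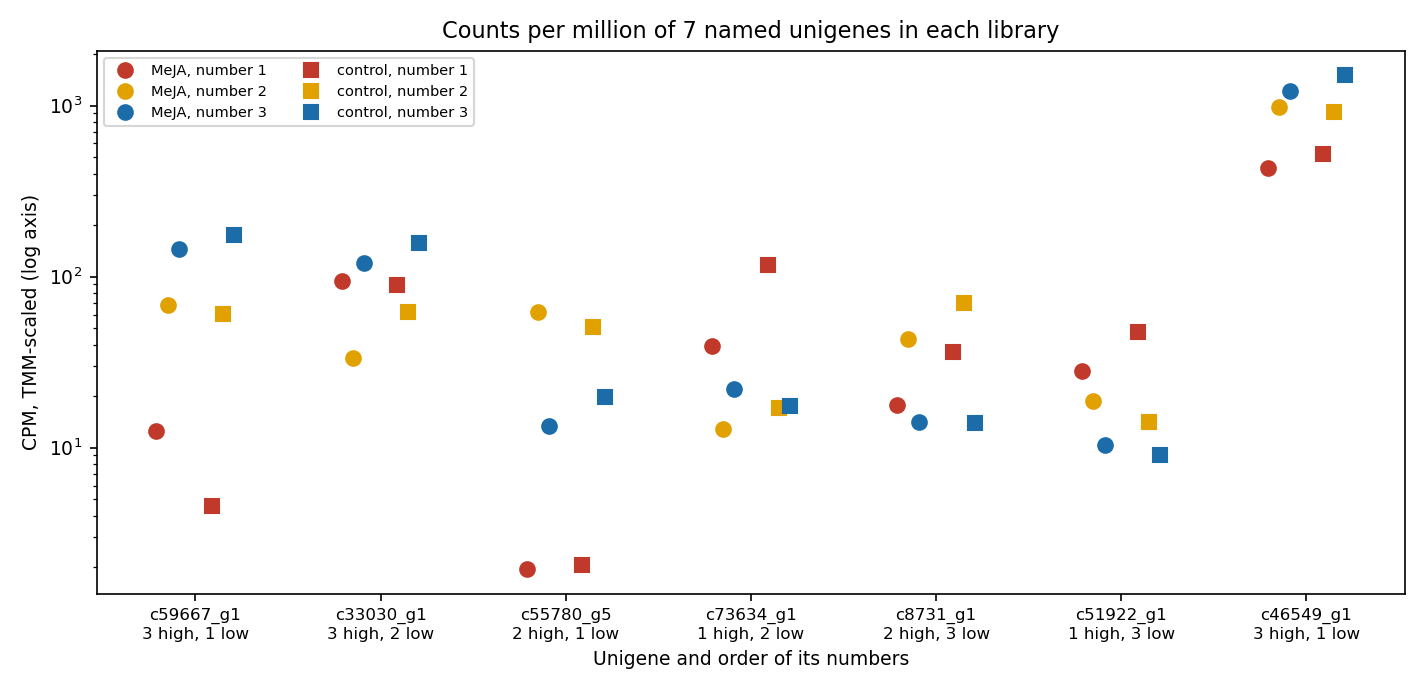
CPM after TMM scaling (log axis) of the 7 named unigenes (x axis) in each library, with circles for the libraries labelled MeJA and squares for the libraries labelled control and colors for the replicate number. In c59667_g1 the circle and the square of number 1 lie at 12.5 and 4.54 CPM, far below those of number 3 at 145 and 175 CPM.

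The other wide members are named after their values were seen. A spread of at least 2 log2 units in both groups was held by 14 unigenes, of which 10 had number 3 highest and number 1 lowest and 4 had number 2 highest and number 1 lowest. The libraries numbered 1 were the lowest in each of the 14. Unigene c62035_g6 had 146, 182 and 1336 CPM in the libraries labelled MeJA 1, 2 and 3, against 43.4, 940 and 1706 CPM in the libraries labelled control. Here number 2 stood near the low library in the MeJA group and near the high library in the control group, with the widest control spread of any member at 5.27 log2 units.

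Unigene c61443_g1 had 19.1, 143 and 210 CPM in the libraries labelled MeJA 1, 2 and 3, against 18.1, 242 and 327 CPM in the libraries labelled control. Both libraries numbered 1 were near 20 CPM and the other 4 far above it. Unigene c58004_g1, with number 2 highest, had 24.96, 167 and 96.2 CPM in the libraries labelled MeJA, against 17.2, 190 and 141 CPM in the libraries labelled control. It repeated the pattern of low libraries numbered 1 with another number on top.

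The spread varied among the members. The smaller of the spreads of both groups had a median of 1.33 log2 units, with quartiles of 1.19 and 1.60 and a range of 1.00 to 4.08. It lay under 1.25 in 31 unigenes, between 1.25 and 1.5 in 26, between 1.5 and 2 in 15, between 2 and 3 in 10 and between 3 and 5 in 4. The median spread was 1.53 log2 units in the libraries labelled MeJA and 1.68 in the libraries labelled control, and 30 unigenes were wider in the libraries labelled MeJA and 56 in the libraries labelled control. As a ratio of CPM, the highest library was a median of 3.05 times the lowest in the libraries labelled MeJA and 3.27 times in the libraries labelled control.

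Across the 86 unigenes the spreads of both groups correlated with Pearson's r of 0.576 and Spearman's rho of 0.320. All unigenes share the same 6 libraries and the lower limit on both spreads, and unigenes are not independent replicates. The place of the middle library between the lowest and the highest was less alike. On a scale from 0 at the lowest to 1 at the highest library, its median was 0.589 in the libraries labelled MeJA and 0.612 in the libraries labelled control, with r of 0.237 and rho of 0.273 over the 86 unigenes. The middle library lay within 0.1 log2 units of the highest or the lowest in 7 unigenes in the libraries labelled MeJA and in 10 in the libraries labelled control, 15 in either, so that the order of these 15 rested on a near tie.

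**Figure D3:**
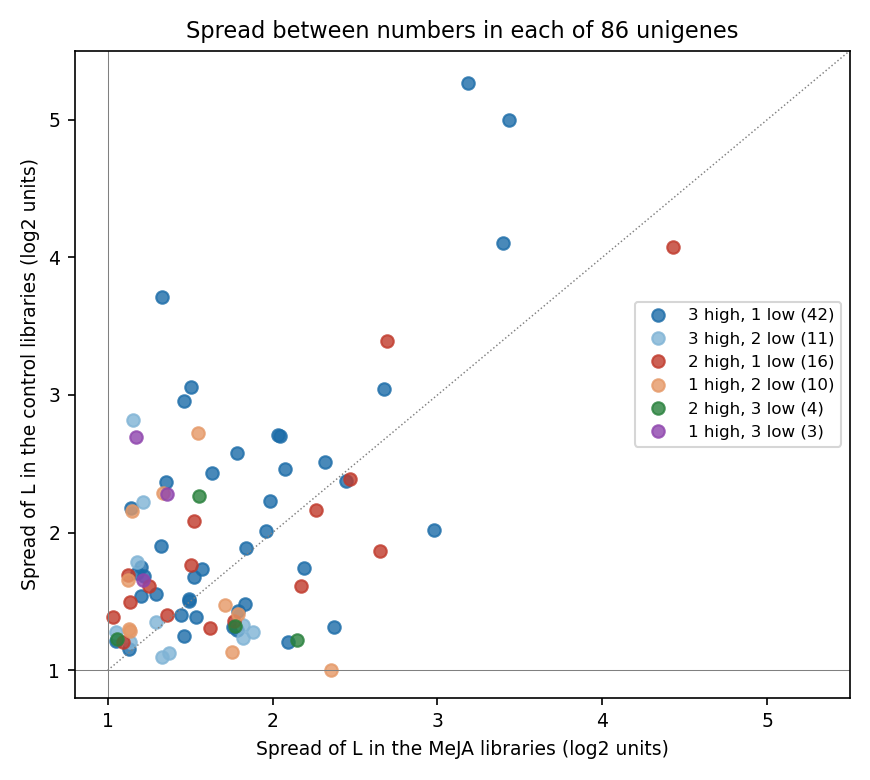
Spread of L between the highest and the lowest number in the libraries labelled MeJA (x axis, log2 units) and in the libraries labelled control (y axis, log2 units), with 1 point for each of the 86 unigenes, colored by order. Grey lines mark the limit of 1 in each group and the dotted line equal spreads, above which 56 unigenes lie.

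The distance between libraries followed from the same values. The median absolute difference in L was 0.34 between the MeJA and the control library of the same number, and 1.13 both between libraries of different groups with different numbers and between libraries of 1 group. The mean distance to the library of the same number was smaller than the mean distance within a group in 86 of 86 unigenes. This is what the rule selects, so nothing is read from it.

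The group means of L differed by a median of -0.16 (MeJA minus control), with a range of -0.58 to 0.57. With TMM scaling and the groups as labelled, 26 members had the higher mean in the libraries labelled MeJA and 60 the lower, but with total counts as the only scaling, 80 had the higher and 6 the lower. Total-count scaling moved the median of all 24775 unigenes that passed the count criterion to 0.41, against -0.0017 with TMM, and the median of the members likewise to 0.41. The median of the members thus lay below that of all unigenes with TMM and at about the same place with total counts. Highest and lowest numbers were kept in both groups by 72 of the 86 under total counts, by 84 under relative log expression factors, by 80 under upper-quartile factors and by 73 with FPKM in place of CPM. The close group means that the rule also requires were kept by fewer, 62 of the 86 under total counts and 62 with FPKM. Under relative log expression factors 77 kept them, and under upper-quartile factors 75.

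At the limits of the rule, the narrowest member was c59594_g1 with a smaller spread of 1.003 log2 units, and the nearest unigene outside had 0.997. Group means differed by 0.584 in the last member inside and by 0.588 in the nearest unigene outside. The lowest mean level inside was 20.9 CPM with 19.6 CPM just outside, and the highest was 930 CPM with 1148 CPM just outside.

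edgeR's quasi-likelihood test with Benjamini-Hochberg adjustment called 6663 of 24646 unigenes (27.0%) between MeJA and control at an adjusted p under 0.05. The calls split into 3514 unigenes that were higher in the group labelled MeJA and 3149 that were lower, while total counts alone gave 6104 higher and 1820 lower, and both splits would turn round if the labels are exchanged. The test called 0 of the 86 members, 0 of them had an unadjusted p under 0.05, and DESeq2 called 0 of them as well. With the replicate number as a block edgeR called 8350 unigenes (33.9%) and again 0 of the 86. The rule keeps group means close, so nothing is read from these counts.

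Tested for the replicate number itself, with the group as a covariate, edgeR called 0 of 24646 unigenes (0%), although 3124 (12.7%) had an unadjusted p under 0.05. The smallest adjusted p was 0.150. The DESeq2 likelihood ratio test called 926 (3.76%). Among the members, edgeR called 0 and 85 of the 86 had an unadjusted p under 0.05, and DESeq2 called 60. Members were selected on this very contrast, so their counts are a description beside the background.

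The 86 members were then set against the other unigenes of the same kind. Among the 292 unigenes with wide spreads in both groups, 86 had the same order in both groups, 70 shared only the lowest number, 52 shared only the highest, 62 shared neither without being reversed, and 22 (7.53%) were reversed. The largest cells outside the shared orders were 30 unigenes with number 3 highest and number 2 lowest in the libraries labelled MeJA and number 3 highest and number 1 lowest in the libraries labelled control, and 27 with number 3 highest and number 1 lowest in the libraries labelled MeJA and number 2 highest and number 1 lowest in the libraries labelled control. Both of these kept either the high or the low number.

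**Figure D4:**
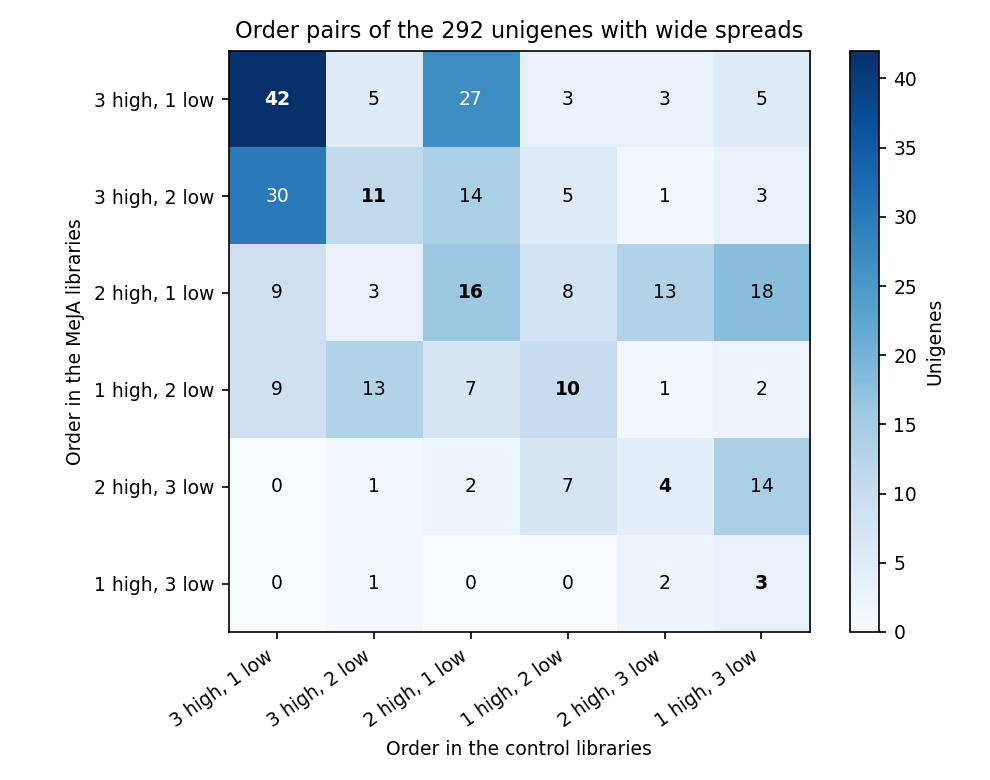
Number of unigenes (color and printed number) for each order in the libraries labelled MeJA (rows) and in the libraries labelled control (columns), over the 292 unigenes with close group means and wide spreads in both groups. The diagonal, in bold, holds the 86 unigenes with a shared order, led by the 42 with number 3 highest and number 1 lowest.

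The share with the same order was larger in unigenes with wider spreads. It was 21.8% of 2840 unigenes with close group means and a spread under 1 in at least 1 group. It was 26.0% of 219 where the smaller spread lay between 1 and 1.5, 34.1% of 44 between 1.5 and 2, and 48.3% of 29 at 2 or more. Over all 7472 unigenes of this level it was 23.4%. From a spread of 1 upward the unigenes with the same order are the members themselves, so these shares are a description. The share with a reversed order did not fall steadily with the spread. It was 12.0% of the 2840, 7.31% of the 219, 6.82% of the 44 and 10.3% of the 29.

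By mean level, 30 of 114 of the 292 unigenes had the same order at 20 to 50 CPM, 25 of 81 at 50 to 100, 17 of 49 at 100 to 200, 8 of 37 at 200 to 500 and 6 of 11 at 500 to 1000 CPM. Members were thus found in every range of level.

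A reading that the choice did not use was obtained by choosing in 1 group and reading in the other. Unigenes with a mean level of 20 to 1000 CPM and a spread of at least 1 log2 unit within the libraries labelled MeJA numbered 2214. In the libraries labelled control, 1586 of these (71.6%) were also higher in the number that had been highest than in the one that had been lowest, with a median difference in L of 0.44. Chosen in the libraries labelled control and read in the libraries labelled MeJA, the direction was shared by 1640 of 2348 (69.8%), with a median of 0.39. Each order rests on 1 pair of libraries in each group, so no p is given.

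The reading differed by order. For number 3 highest and number 1 lowest, 83.9% of 397 unigenes chosen in the libraries labelled MeJA had the same direction in the libraries labelled control, against 55.3% of all unigenes of the same level, and 82.3% of 481 chosen in the libraries labelled control had it in the libraries labelled MeJA, against 57.9%. For number 1 highest and number 3 lowest, the share was 81.1% of 111 chosen in the libraries labelled MeJA but 49.3% of 339 chosen in the libraries labelled control. All unigenes of the same level had 44.7% and 42.1% for this order. For number 1 highest and number 2 lowest the share was 71.0% of 793 chosen in the libraries labelled MeJA and 54.2% of 319 chosen in the libraries labelled control. Here all unigenes of the same level had 50.7% and 51.1%. For number 3 highest and number 2 lowest the share was 65.4% of 338 chosen in the libraries labelled MeJA and 82.5% of 331 chosen in the libraries labelled control. The shares of all unigenes of the same level were 53.6% and 60.6%. For number 2 highest and number 1 lowest it was 67.5% of 424 chosen in the libraries labelled MeJA and 73.8% of 626 chosen in the libraries labelled control. All unigenes of the same level had 49.3% and 48.8%. For number 2 highest and number 3 lowest it was 61.6% of 151 and 67.1% of 252, against 46.4% and 39.3%. The sides were closest in the leading order of the members and near each other in both orders with number 2 highest. They were further apart in the remaining orders.

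**Figure D5:**
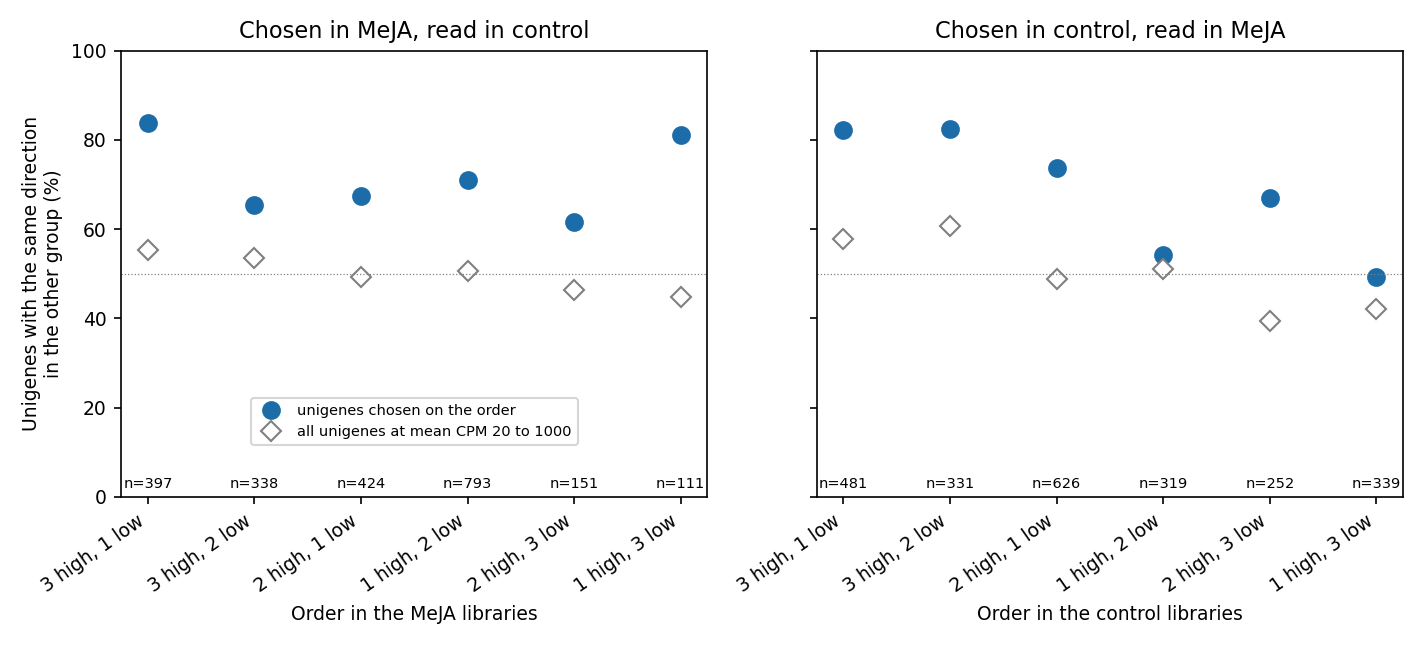
Percent of unigenes (y axis) whose chosen direction, highest minus lowest number in 1 group, had the same sign in the other group, by order (x axis), chosen in the libraries labelled MeJA (left) or in the libraries labelled control (right). Filled circles are unigenes with a spread of at least 1 log2 unit (n printed below), open diamonds all unigenes with a mean of 20 to 1000 CPM in the choosing group, and for number 3 highest and number 1 lowest the circles stand at 83.9% and 82.3%.

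With a wider chosen spread of at least 2 log2 units, 222 of 301 unigenes (73.8%) chosen in the libraries labelled MeJA and 398 of 502 (79.3%) chosen in the libraries labelled control kept the direction. At 3 or more the shares were 25 of 45 (55.6%) and 88 of 110 (80.0%).

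The assembly offered a further comparison, since unigenes of 1 assembly component share sequence. The 86 members came from 85 components, and 53 (61.6%) were the only unigene of their component, against 66.5% of the 206 unigenes without a shared order. For 32 members, the components held 71 other unigenes that passed the count criterion and were not members, and these formed 72 pairs with a member because c54833_g2 lies beside c54833_g1 and c54833_g3. In 26 of the 72 pairs the neighbor was higher in the member's high than in its low number in both groups, in 25 it was lower in both and in 21 mixed, and in 5 it had the member's order. The sign was the same in both groups in 51 of the 72 pairs (70.8%), against 58.1% to 59.9% over all 24775 unigenes for a fixed pair of numbers. Neighbors c56597_g3 and c56597_g9 had identical values in every library, so their profile is counted more than once. Many pairs also share a component, so the pairs are not independent and no test was made over them.

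The neighbors in a component did not move as a unit with the member. Their median difference between the member's high and low number was 0.04 log2 units in the libraries labelled MeJA and 0.01 in the libraries labelled control. A difference of at least 1.5-fold in both groups was found in 6 of the 72 pairs in the member's direction and in 3 in the opposite direction. These neighbors are named after their values were seen.

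Unigene c62035_g5, a neighbor of c62035_g6, had 29.8, 62.9 and 153 CPM in the libraries labelled MeJA 1, 2 and 3, against 28.9, 129 and 356 CPM in the libraries labelled control. It took the member's order, as c57480_g2 did with 264, 687 and 956 CPM in the libraries labelled MeJA, against 714, 831 and 1707 CPM in the libraries labelled control. In contrast, c55780_g3, a neighbor of c55780_g5, had 123, 77.3 and 83.4 CPM in the libraries labelled MeJA, against 93.9, 39.3 and 50.8 CPM in the libraries labelled control. It was highest in number 1, where c55780_g5 was lowest, and when the counts of that component were summed the spread fell to 0.26 log2 units, against 4.08 for c55780_g5 alone.

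A single component held a pair of members. Unigene c54833_g1 had 140, 317 and 701 CPM in the libraries labelled MeJA 1, 2 and 3, against 163, 683 and 932 CPM in the libraries labelled control. Unigene c54833_g3 had 41.4, 234 and 213 CPM in the libraries labelled MeJA, against 46.8, 250 and 204 CPM in the libraries labelled control. Both were lowest in the libraries numbered 1, and they differed in which number was highest. How reads were divided between unigenes of a component rests on the authors' estimate.

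The effective length, recovered as the ratio of count to FPKM, was not used by the rule but rests on the same estimates as the counts. Its median was 1564 bases in the members, with quartiles of 872 and 2096, against 1530 bases in the 206 unigenes without a shared order and 1718 bases in all 7472 of this level. For changes between libraries, the median shift of each library, from -8.22 to 9.09 bases, was first subtracted. Effective lengths given below for single libraries are after this subtraction. The effective length then differed by more than 5% between libraries in 13 of the 86 members (15.1%), against 34 of the 206 (16.5%) and 1612 of 7349 (21.9%). The effective length of a unigene is a mean over its assembled transcripts, weighted by their estimated levels, so it moves when their proportions move.

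In 13 of those 13 members, the difference in effective length between the number with the highest and the number with the lowest count had the same sign in both groups, 8 being longer and 5 shorter where the count was high. The same sign was found in 20 of the 34 unigenes without a shared order (58.8%) and in 1015 of the 1612 (63.0%). For all sets the numbers compared were those with the highest and lowest count in the libraries labelled MeJA. The rule makes these the highest and lowest in the libraries labelled control only for the members. The 5% limit applied to any pair of libraries, so the compared difference could be small. In c58597_g1, picked after its values were seen, number 3 minus number 1 was 0.79 bases in the libraries labelled MeJA. It was 6.90 bases in those labelled control. The full order of lengths was the same in both groups in 5 of the 13 members. Effective lengths rest on the same estimates as the counts, so nothing is read from the difference between the sets. Unigene c57607_g1, with number 3 highest and number 1 lowest, had effective lengths of 992, 873 and 876 bases in the libraries labelled MeJA 1, 2 and 3, against 924, 848 and 821 bases in the libraries labelled control. It was shorter where its count was high in both groups. Unigene c50414_g1, with number 2 highest and number 1 lowest, had 1958, 2054 and 2018 bases in the libraries labelled MeJA, against 1885, 1977 and 1917 bases in the libraries labelled control, and was longer where its count was high. Both were chosen after their values were seen, counts and FPKM come from the same reads, and no test was made over the 13.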

How the data were processed

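RNA-Seq was performed on 3 MeJA and 3 control libraries of licorice suspension cells. The authors assembled the reads de novo and deposited, for each unigene and library, the estimated count of RSEM, not normalized, and the FPKM made from it. The submitters' processing notes name CASAVA and RSEM. The versions of both, the assembler, the aligner and the filters on reads were not given in the sources used here. Replicates were not pooled, and 0 columns of sample values were left out.

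Expected counts were rounded to whole numbers, as 0.321% to 0.377% of the values per library were not whole. Unigenes with 10 or more counts in 3 or more libraries were kept, CPM was scaled by TMM factors, and L was log2(CPM + 1). Differences are on this scale, which understates changes of low unigenes. Members and lists were chosen with earlier results of these data known. The named unigenes were the member with the largest smaller-of-both-groups spread in each order and the member with the highest mean CPM, and others are marked as chosen after their values were seen.

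Tests across all unigenes used edgeR 4.0.16 in R 4.3.3 (glmQLFit and glmQLFTest after filterByExpr, whose minimums were 10 for the count and 15 for the total, with Benjamini-Hochberg adjustment at 0.05), with 2 degrees of freedom for the replicate number and the group as covariate. DESeq2 1.42.0 was an alternative. Python 3.11.15 was used with scipy 1.17.1, pandas 2.3.3, numpy 2.4.6 and, for plots, matplotlib 3.10.9. The scripts were tested on simulated data. Other alternatives were scaling, filters, pseudocounts, the limits of the rule, FPKM, counts summed per component or thinned to the smallest library, the replicate number as a block, and each library left out in turn. Changes in effective length were read where every library had an FPKM of 1 or more and 10 or more counts.

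Numbers 1 to 3 occur in both groups. Over 24775 unigenes, the deviation of a MeJA library from its group mean correlated with that of the control library of its own number at 0.256, 0.274 and 0.331 for numbers 1, 2 and 3, and with those of the other control libraries at -0.392 to 0.115. Deviations within a group sum to 0, so these values are not independent. The rule matches libraries of 1 number by its definition, and the main test between MeJA and control did not pair them. They were joined in the replicate block and in the test of the number for this reason only. No label or method states what a number stands for. The correlations come from the same 6 libraries as the members, so they are no separate evidence for a pairing. No label says that replicates were separate cultures, so p-values measure only the spread between these libraries, which may be technical. No library was a copy of another, since comparing their counts pair by pair gave a chi-square of 83.7 or more for each degree of freedom within groups and 239.1 or more between groups. Totals of 17041505 to 21670945 counts limit counting error only.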

Additional observations from a re-analysis of the deposited data

How the results depend on the processing

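The 86 members and their 29.5% share of the 292 unigenes with wide spreads depended on the limits of the rule. With a spread of at least 1.5-fold there were 243 members, with at least 2 log2 units 14 (48.3% of 29), with group means within 0.3 log2 units 45, without a limit on the group means 370, with a mean of 5 to 1000 CPM 179 and with 50 to 500 CPM 50. Total counts as the only scaling gave 117 members (35.2%), of which 50 were among the 86. Of the 86, 75 remained members under relative log expression factors, 65 under upper-quartile factors, 49 with FPKM, 81 without a filter on low counts and 81 after thinning, and number 3 highest with number 1 lowest led in each of these. Leaving out 1 library gave 53 to 103 members (61.5% to 91.4%), but the order was then read on 2 numbers only. It gave 56 members without library 3 labelled MeJA, and 53 when library 1 labelled control was left out. The reading chosen in the libraries labelled MeJA was 74.0% with total counts and 73.8% at a spread of 2 log2 units, and that chosen in the libraries labelled control was 79.3% at a spread of 2.

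The replicate block raised the calls between MeJA and control to 8350, against 6663 without it, and changed no call of a member. Leaving out 1 library gave 3787 to 6803 calls, with 3787 when library 1 labelled MeJA was left out and 3847 when it was library 2 labelled control. For the replicate number, DESeq2 called 926 unigenes against 0 by edgeR, and leaving out 1 library gave 0 to 1181, with 76, 203 and 458 when number 1, 2 or 3 of the libraries labelled MeJA was left out and 1181, 0 and 20 when it was number 1, 2 or 3 of those labelled control. A number left with 1 library is assumed to vary like the others. The causes of these changes were not tested. Spreads of named unigenes were also taken under other scalings, with FPKM and with counts summed per component. Of these 28 spreads, 27 moved by less than the spread between replicates, which is wide by the choice of these unigenes, and 0 reversed. Apart from c55780_g5 and c8731_g1, the named unigenes are alone in their component, so summing could hardly move them. With counts summed per component, c55780_g5 fell to 0.26, against 4.08, and c8731_g1 to 0.76, against 1.56, which is under the limit of 1. With 3 libraries in each group, an order rests on single libraries, and the batch or culture behind a number cannot be told apart from the number.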

Other observations

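Shared orders were also held by unigenes that the limits of the rule kept out. Of 921 unigenes with a mean of 20 to 1000 CPM, wide spreads in both groups and group means at least 1.5-fold apart, 284 (30.8%) had the same highest and the same lowest number in both groups and 43 (4.67%) were reversed. Of these 921, the order was shared by 93 of 385 (24.2%) with the higher mean in the libraries labelled MeJA and by 191 of 536 (35.6%) with the lower, a split that depends on the scaling, would turn round if the labels are exchanged, and was not tested. Number 3 was highest and number 1 lowest in 14 of the 93 and in 83 of the 191.

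Among 702 unigenes with a mean under 20 CPM, close group means and wide spreads, 226 (32.2%) had a shared order and 40 (5.70%) a reversed one, and number 3 was highest and number 1 lowest in 26 of the 226. Above 1000 CPM, 3 of 7 such unigenes had a shared order, each with number 3 highest and number 1 lowest.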
